A study of Mus musculus with 16 samples.

Results

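The major histocompatibility complex (MHC) class I pathway was followed through 10 genes in the ventricles of 16 mice. The genes were chosen by symbol and were 10 of the 17737 genes listed: the heavy chains H2-K1 and H2-D1, their light chain B2m, the peptide transporter genes Tap1 and Tap2, the loading factor Tapbp, the immunoproteasome subunits Psmb8, Psmb9 and Psmb10, and the transactivator Nlrc5. All 10 passed the filter on low counts.

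RNA was taken from the lower part of the ventricles of male C57BL/6 mice that entered the study at 6 weeks of age and then ate 1 diet for 6 months. The groups, of 4 animals each, ate the NIA primate formula, the UW primate formula, mNIA (the NIA formula altered to the sucrose and fat content of UW) or standard rodent chow. Each library came from 1 animal, and the study concerned the role of diet in cardiac ageing and fibrosis. Groups were named by the titles of the samples. By their letters, the codes of the libraries match these titles poorly, and which formula group is which was not settled. The mean of the 3 formulas against chow does not depend on it.

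Total counts ran from 2278223 in NIA replicate 4 to 63005361 in NIA replicate 2, and from 3143343 to 6583503 in the other 14 libraries. The 10 genes held from 0.0529% of all counts in NIA replicate 1 to 0.208% in chow replicate 3. Weighted for quality by limma, 4 libraries came under 0.5: NIA replicate 4 at 0.16, chow replicate 3 at 0.23, NIA replicate 1 at 0.3 and mNIA replicate 2 at 0.36. A low weight marks a library that departs from the values fitted for its diet. Results that rest on these libraries are given with and without them. Cardiomyocyte markers summed to between 60810 and 129100 CPM (counts scaled to a common library size by TMM, the trimmed mean of M-values) in every library. Myl7, a myosin light chain of the atrium, reached 1.29 CPM at most (here without TMM scaling) and was at 0 in 5 libraries. Myl4 and Nppa, the atrial markers that passed the filter, were at 0 in no library. Together they summed to between 65.4 CPM in NIA replicate 1 and 225 CPM in chow replicate 3.

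Class I molecules carry peptides from inside the cell to the surface, where cytotoxic T cells inspect them. A heavy chain pairs with beta-2 microglobulin in the endoplasmic reticulum, the TAP transporter brings in peptides cut by the proteasome, and tapasin holds transporter and heavy chain together while a peptide is fitted. Interferon raises the whole set, replaces the catalytic proteasome subunits by immuno forms, and acts on class I promoters in part through Nlrc5. In the heart, vascular and blood-derived cells carry most class I and resting cardiomyocytes little.

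The promoters of the heavy chains, B2m and the shared Tap1 and Psmb9 interval are shown because the animals' levels of these genes are compared with each other. The sequences are from RefSeq on GRCm38.p6, the mm10 assembly. Capitals mark matches, on either strand, to the NF-kappa-B letters GGGNNTTCC, the interferon regulatory factor core AANNGAAA, the X2 letters TGACG and the Y box CCAAT. The 4 stretches are 5' to 3' on the coding strand of the named gene, at chr17:34000348-34000547 (minus strand) for H2-K1, chr17:35262894-35263093 (plus strand) for H2-D1 and chr2:122147487-122147686 (plus strand) for B2m. The last is the plus strand of chr17:34187331-34187555, all 225 bases between the starts of Psmb9, which runs to the left, and Tap1, which runs to the right.
H2-K1: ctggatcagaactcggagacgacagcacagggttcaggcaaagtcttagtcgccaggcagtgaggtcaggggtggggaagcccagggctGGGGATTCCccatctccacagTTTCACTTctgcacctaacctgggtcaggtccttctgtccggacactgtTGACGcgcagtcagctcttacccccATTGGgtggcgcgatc
H2-D1: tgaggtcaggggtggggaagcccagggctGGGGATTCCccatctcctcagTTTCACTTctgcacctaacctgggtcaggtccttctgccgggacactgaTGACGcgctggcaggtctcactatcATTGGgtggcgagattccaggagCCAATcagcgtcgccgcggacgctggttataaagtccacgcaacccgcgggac
B2m: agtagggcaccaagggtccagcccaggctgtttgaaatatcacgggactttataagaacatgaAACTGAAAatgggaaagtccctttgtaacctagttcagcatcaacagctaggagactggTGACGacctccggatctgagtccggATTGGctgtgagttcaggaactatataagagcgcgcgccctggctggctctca
Tap1-Psmb9: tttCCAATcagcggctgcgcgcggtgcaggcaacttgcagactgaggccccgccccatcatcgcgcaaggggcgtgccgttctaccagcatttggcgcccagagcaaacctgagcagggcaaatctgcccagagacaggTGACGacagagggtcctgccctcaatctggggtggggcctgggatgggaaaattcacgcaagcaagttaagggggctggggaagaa

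Promoter entries were found for 8 of the 10 genes, and Tap2 and Nlrc5 had none. In the 250 bases before the start, the interferon regulatory factor core was found in 3 genes (H2-K1, H2-D1 and B2m), against 21.3% of 32851 promoter windows. The NF-kappa-B letters were found in H2-K1 and H2-D1 only among the 8, against 4.98% of windows. The X2 letters were in 5 of 8 genes (17.8% of windows) and the Y box in 6 of 8 (33.8%). No matches of different motifs overlapped. The first letters of the X2 and Y matches lay 25 bases apart in H2-K1, H2-D1 and B2m, a pair found in 30 of the 32851 windows, 0.0913%. That distance was read from H2-K1 itself, and these 3 genes are among the 26 genes with the pair. In both heavy chain promoters the NF-kappa-B match lay 21 bases before the interferon core and the core 49 bases before X2, while in B2m the last distance was 59 bases. A match describes letters and not a bound factor. The promoters of H2-K1 and H2-D1 were identical at 166 of 190 aligned bases, 87.4%.

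The genes lie on mm10 at chr17:33996012-34000347 (H2-K1, minus strand), chr17:35263094-35267497 (H2-D1), chr2:122147687-122153082 (B2m), chr17:34187556-34197225 (Tap1), chr17:34204479-34216321 (Tap2), chr17:33919478-33929290 (Tapbp), chr17:34198195-34201454 (Psmb8), chr17:34182099-34187330 (Psmb9, minus strand), chr8:105935728-105938392 (Psmb10, minus strand) and chr8:94472763-94527272 (Nlrc5). Psmb9, Tap1, Psmb8 and Tap2 thus follow each other within the MHC, and B2m, Psmb10 and Nlrc5 lie outside it. Divided by transcript length, the mean level over the 16 libraries was highest for B2m (406 CPM per kb), then H2-K1 (110 CPM per kb), H2-D1 (99.2 CPM per kb), Tapbp (31.25 CPM per kb) and Psmb10 (24.2 CPM per kb). Lower on the same scale were Psmb8 (11.3 CPM per kb), Tap2 (9.53 CPM per kb), Psmb9 (5.855 CPM per kb), Tap1 (4.47 CPM per kb) and Nlrc5 (1.33 CPM per kb). The 75-base reads could come from another gene as well in 1.55% of positions along the H2-K1 transcript, 6.9% along H2-D1 and 0.992% along Tapbp. The spans of Tap1 and Psmb9 given here do not overlap, but exons of their GENCODE vM21 transcripts overlap on opposite strands, and the sources used here do not say whether strand was used in counting.

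On the primate formulas all 10 genes had a negative log2 fold change against chow, and none of them passed the test. B2m, at -0.02, was at 0.00 or above with RLE scaling, DESeq2 or limma-voom, and the other 9 stayed negative in each of these. A gene counted as called at an adjusted p under 0.05 over all tested genes. By edgeR's quasi-likelihood test the log2 fold changes, formula mean minus chow, ran from -0.73 for Nlrc5 to -0.02 for B2m. Their median was -0.48, against 0 over all 13381 tested genes, 49.6% of which were lower. The adjusted p was 0.938 to 0.994 for the 10 genes, and 0 of them were called, with 0 genes called in the whole table (0%). At an unadjusted p under 0.05 there were 0 of the 10 genes, against 2.19% of all genes. DESeq2 and limma-voom also called 0 of the 10, against 0% and 0.0299% of all genes. No gene of the 10 had all 12 formula animals below all 4 chow animals, as 0.0523% of all genes had.

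**Figure D1:**
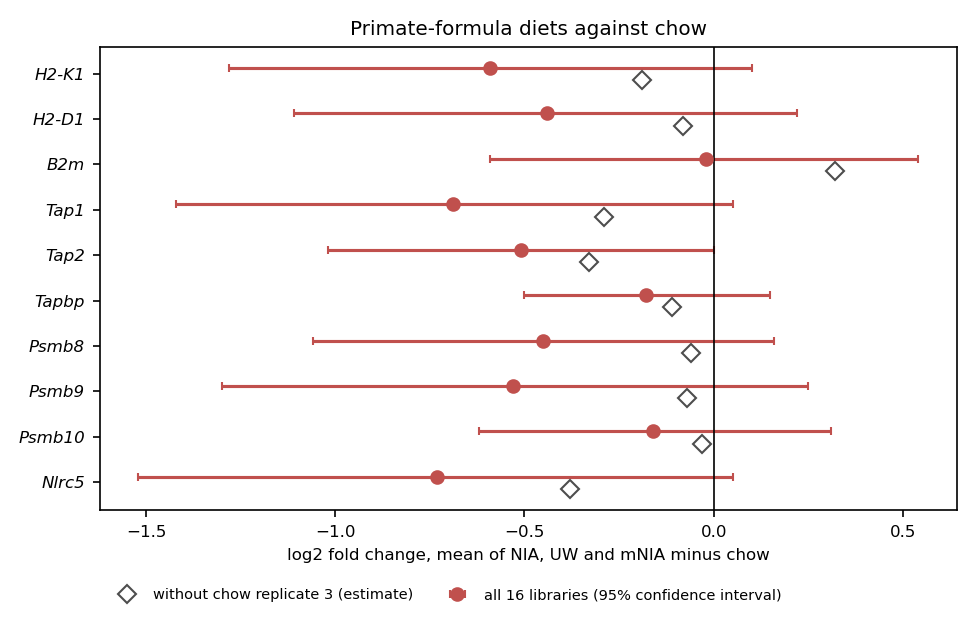
Log2 fold change of each gene, mean of NIA, UW and mNIA minus chow, with the 95% confidence interval over all 16 libraries (filled circles) and the estimate without chow replicate 3 (open diamonds). All 10 filled circles lie below 0 with intervals that reach 0 (B2m is at 0.00 with RLE scaling), and without chow replicate 3 the estimates lie between -0.38 for Nlrc5 and 0.32 for B2m.

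Chow replicate 3 carried much of this pattern. It was the highest of all 16 libraries for 8 of the 10 genes, against 21.3% of all genes, and the exceptions were Tapbp and Psmb10. Without it the median log2 fold change of the 10 genes was -0.10, with 9 lower and B2m higher at 0.32, and the smallest unadjusted p was 0.226. With any other single library left out, the median lay between -0.59 (without chow replicate 1 or 2) and -0.40 (without NIA replicate 1). Without the 4 libraries of low quality weight, which include chow replicate 3, it was -0.10, with 9 lower and 1 higher. NIA replicate 1 was the lowest library for 5 of the 10 genes (11.7% of all genes) and NIA replicate 4 for 3 (32.7%). Diet took a median of 20.8% of the variance of the 10 genes, from 12.6% for Psmb8 to 35.5% for Tap2, against a median of 19.2% over all genes.

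**Figure D2:**
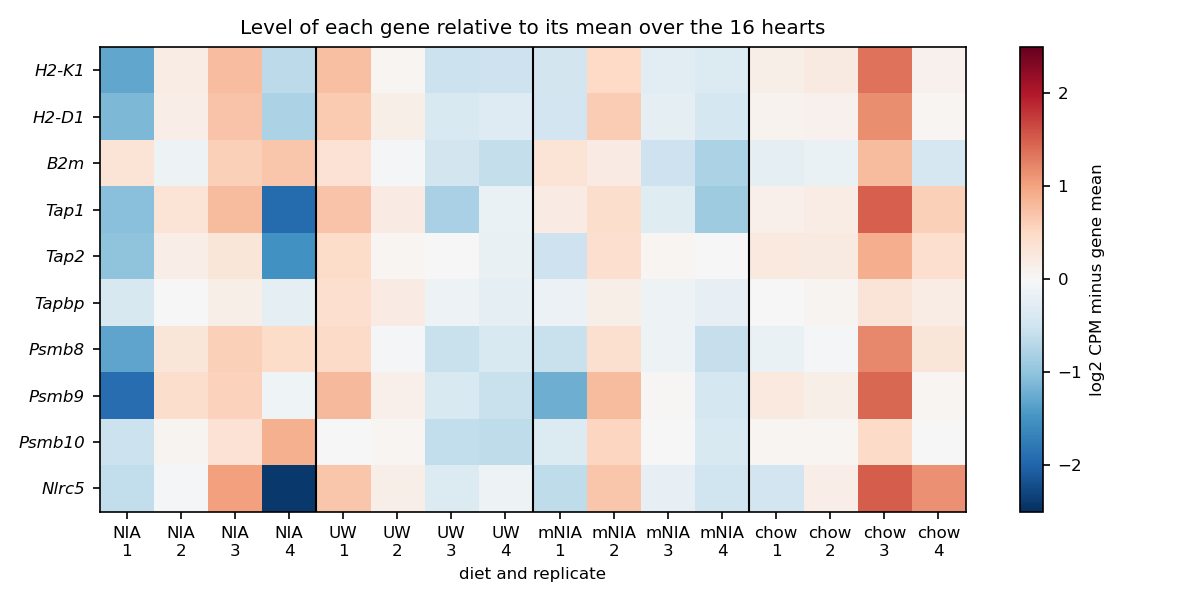
Log2 CPM of each gene in each heart minus the gene's mean over the 16 hearts, with libraries in columns by diet and replicate and genes in the order heavy and light chains, loading, immunoproteasome and Nlrc5. Chow replicate 3 is above the mean in all 10 genes, NIA replicate 1 is below it in all but B2m, and NIA replicate 4 is below it for Nlrc5, Tap1 and Tap2 but above it for Psmb10, B2m and Psmb8.

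The heavy chains H2-K1 and H2-D1, which hold the peptide, varied together from animal to animal. H2-K1 was measured at 65.8, 184, 278 and 102 CPM in the NIA animals, at 272, 166, 112 and 114 CPM in the UW animals and at 118, 228, 134 and 128 CPM in the mNIA animals. The chow animals had 179.9, 188.5, 412 and 174 CPM. The groups overlapped, and chow replicate 3 held more H2-K1 than any other heart, while the other 3 chow hearts lay within the range of each formula group. Means were 157 ± 94.3 CPM on NIA, 166 ± 74.9 on UW, 152 ± 50.9 on mNIA and 239 ± 116 on chow (SD, n = 4 each). The log2 fold change on the formulas was -0.59 ± 0.33 (SE, edgeR adjusted p = 0.938), and -0.19 without chow replicate 3.

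H2-D1 stood at 88.1, 215, 317 and 111 CPM in the NIA animals, at 304, 212, 148 and 154 CPM in the UW animals and at 139, 300.5, 165.5 and 143 CPM in the mNIA animals. In the chow animals it stood at 203, 207, 432 and 197.5 CPM. Again chow replicate 3 was the highest and NIA replicate 1 the lowest. On the formulas its log2 fold change was -0.44 ± 0.32 (SE, edgeR adjusted p = 0.938), and -0.08 without chow replicate 3. H2-K1 ran at 74.1 to 95.4 CPM per 100 CPM of H2-D1 in all 16 libraries, and their longest coding transcripts were identical at 91.1% of aligned bases.

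B2m, the light chain that every class I heavy chain needs, did not follow the heavy chains in every heart. Its values were 420, 303, 503 and 533 CPM in the NIA animals, 427, 323, 243 and 219 CPM in the UW animals and 421, 379, 232 and 190.1 CPM in the mNIA animals. The chow animals had 282, 296, 572 and 247 CPM. Chow replicate 3 was again the highest, but NIA replicate 4, low in both heavy chains, was second. The mean was 440 ± 103 CPM on NIA, 303 ± 94.2 on UW, 306 ± 112 on mNIA and 349 ± 150 on chow (SD, n = 4 each). Against chow, its log2 fold change was -0.02 ± 0.27 (SE) for the 3 formulas and 0.33 ± 0.33 for NIA alone against chow (edgeR adjusted p = 0.994 and 0.817).

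Set against B2m within each library, a measure chosen after its values were seen, the heavy chains split the hearts. H2-K1 was 15.7, 60.6, 55.3 and 19.2 CPM per 100 CPM of B2m in the NIA animals and 63.6, 51.4, 46.0 and 52.1 in the UW animals. It was 28.1, 60.1, 57.7 and 67.3 in the mNIA animals and 63.8, 63.8, 72.1 and 70.6 in the chow animals. NIA replicates 1 and 4 and mNIA replicate 1 lay below all others, and H2-D1 gave 21.0, 20.8 and 33.1 per 100 B2m in the same hearts against 60.9 to 80.1 elsewhere. In those 3 libraries, genes with an unbroken stretch of 25 or more A, or of 25 or more T, in a transcript took 24.1%, 26.6% and 14.2% of the counts, against 6.1% to 12.9% in the other libraries. The longest such stretch in any of the 10 genes was 13 bases, in Nlrc5. The part of this library difference in the ratio was not tested.

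**Figure D3:**
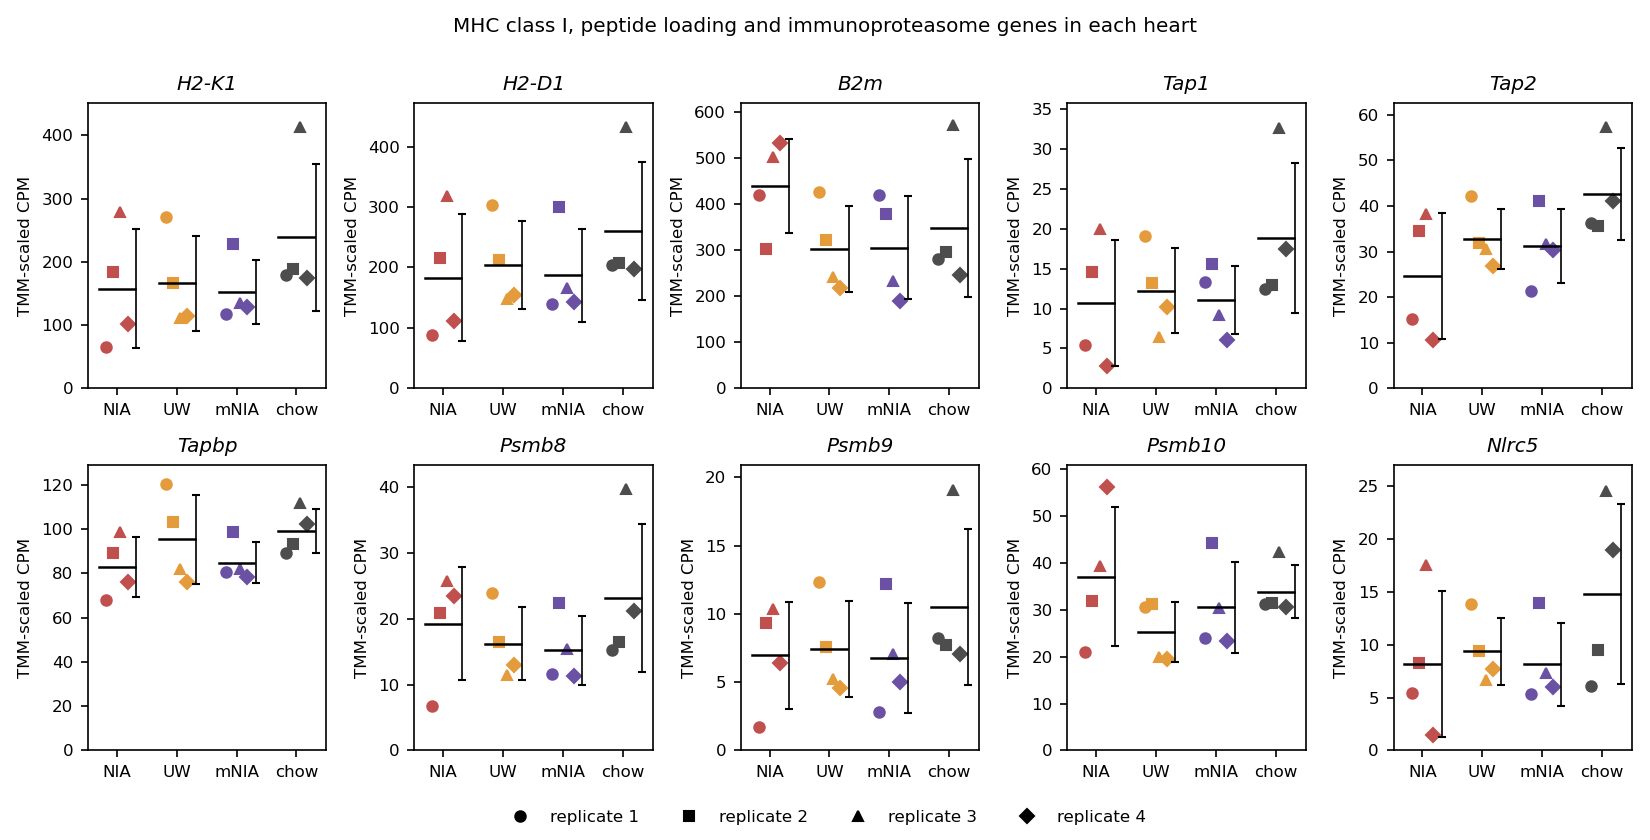
TMM-scaled CPM of each gene in each heart by diet, with symbols for the replicate number, a horizontal line at the mean of 4 animals and a bar of 1 SD. In every panel the values of the 4 diets overlap, and in 8 panels the topmost symbol is chow replicate 3, at 412 CPM for H2-K1 and 24.5 CPM for Nlrc5.

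The transporter genes Tap1 and Tap2, whose products form 1 peptide pump, had some of the larger differences in mean, none past the threshold. Tap1 was at 5.45, 14.5, 19.9 and 2.85 CPM in the NIA animals, at 19.0, 13.2, 6.43 and 10.2 CPM in the UW animals and at 13.3, 15.6, 9.21 and 6.10 CPM in the mNIA animals. The chow animals had 12.5, 13, 32.6 and 17.4 CPM. The 2.85 CPM of NIA replicate 4 rest on 4 counts, and 6 of the 12 formula hearts lay above chow replicates 1 and 2. Tap1 had a log2 fold change on the formulas of -0.69 ± 0.35 (SE, edgeR adjusted p = 0.938), and -0.29 without chow replicate 3.

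Tap2 showed 15.1, 34.6, 38.1 and 10.7 CPM in the NIA animals, 42.2, 31.8, 30.6 and 26.9 CPM in the UW animals and 21.4, 41.2, 31.7 and 30.4 CPM in the mNIA animals. In chow it was 36.3, 35.6, 57.3 and 41.0 CPM. It had the largest share of variance between diets of the 10 genes, and 3 formula hearts lay above the lowest chow heart. Its log2 fold change was -0.51 ± 0.24 on the formulas (SE, unadjusted p = 0.0516, edgeR adjusted p = 0.938) and -0.33 without chow replicate 3. For NIA alone against chow it was -0.71 ± 0.31 (edgeR unadjusted p = 0.0349, adjusted p = 0.525). No other gene of the 10 had an unadjusted p under 0.05 in that comparison, where 8.7% of all genes had one.

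Tapbp, which encodes tapasin, varied least of the 10 genes. Its range was 68.0 to 98.6 CPM in NIA, 76.0 to 120 CPM in UW, 78.1 to 98.5 CPM in mNIA and 89.0 to 112 CPM in chow. The highest value was that of UW replicate 1, not of chow replicate 3. The log2 fold change on the formulas was -0.18 ± 0.15 (SE, 95% interval -0.50 to 0.15, edgeR adjusted p = 0.938).

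The immunoproteasome subunits take the place of Psmb5, Psmb6 and Psmb7 as the cutting sites of the core particle and favour peptides that class I grooves hold well. Psmb8 (beta5i) was at 6.71, 20.9, 25.8 and 23.5 CPM in the NIA animals, at 23.9, 16.5, 11.49 and 12.9 CPM in the UW animals and at 11.6, 22.4, 15.5 and 11.3 CPM in the mNIA animals. The chow animals had 15.2, 16.5, 39.6 and 21.1 CPM. Psmb8 had a log2 fold change on the formulas of -0.45 ± 0.29 (SE, edgeR adjusted p = 0.938), and -0.06 without chow replicate 3. The other 3 chow hearts lay inside the range of each formula group.

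Psmb9 (beta1i) was at 1.68, 9.36, 10.4 and 6.40 CPM in the NIA animals, at 12.3, 7.54, 5.26 and 4.60 CPM in the UW animals and at 2.82, 12.2, 7.03 and 5.04 CPM in the mNIA animals. In chow it was at 8.20, 7.71, 19.0 and 7.09 CPM, so that chow replicate 3 stood apart from 3 chow hearts close to each other. The lowest value, in NIA replicate 1, rests on 4 counts. For Psmb9 the log2 fold change was -0.53 ± 0.37 (SE, edgeR adjusted p = 0.938), and -0.07 without chow replicate 3.

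Psmb10 (beta2i) was the most abundant of the 3 immuno subunits per length and the only 1 of the 10 genes at its highest in NIA replicate 4, as 23.8% of all genes were. Its values were 21.0, 31.9, 39.3 and 56.2 CPM in NIA, 30.6, 31.2, 19.9 and 19.6 CPM in UW and 23.99, 44.4, 30.4 and 23.3 CPM in mNIA. The chow hearts had 31.2, 31.5, 42.4 and 30.6 CPM. The log2 fold change was -0.16 ± 0.22 on the formulas and -0.42 ± 0.27 for UW alone against chow (SE, edgeR adjusted p = 0.939 and 0.977).

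The ratio of each immuno subunit to the constitutive subunit it replaces does not depend on how a library is scaled. Psmb8 per 100 Psmb5 CPM ranged from 19.1 to 28.3 in NIA, 19.1 to 47.6 in UW, 16.5 to 28.7 in mNIA and 20.04 to 47.0 in chow. Psmb9 per 100 Psmb6 ranged from 1.79 to 10.3 in NIA, 5.88 to 17.1 in UW, 2.76 to 9.18 in mNIA and 7.14 to 15.3 in chow. Psmb10 per 100 Psmb7 ranged from 17.2 to 31.2 in NIA, 14 to 29.3 in UW, 16.2 to 31.0 in mNIA and 20.9 to 48.8 in chow. Chow replicate 3 was the highest chow heart in all 3 ratios, and UW replicate 1 the highest UW heart. The largest difference in mean log2 ratio was -1.08, for Psmb9 to Psmb6 in NIA against chow (mean -4.53 ± 1.24 in NIA and -3.45 ± 0.50 in chow, SD). None of the 12 comparisons with chow passed a 2-sided exact permutation test (adjusted p of 0.717 or more over the 12). With 4 animals against 4 the smallest p that test can give is 0.0286. The constitutive subunits themselves had log2 fold changes on the formulas of -0.23 ± 0.20 for Psmb5, 0.04 ± 0.23 for Psmb6 and 0.08 ± 0.19 for Psmb7 (SE, edgeR adjusted p = 0.938 to 0.988).

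**Figure D4:**
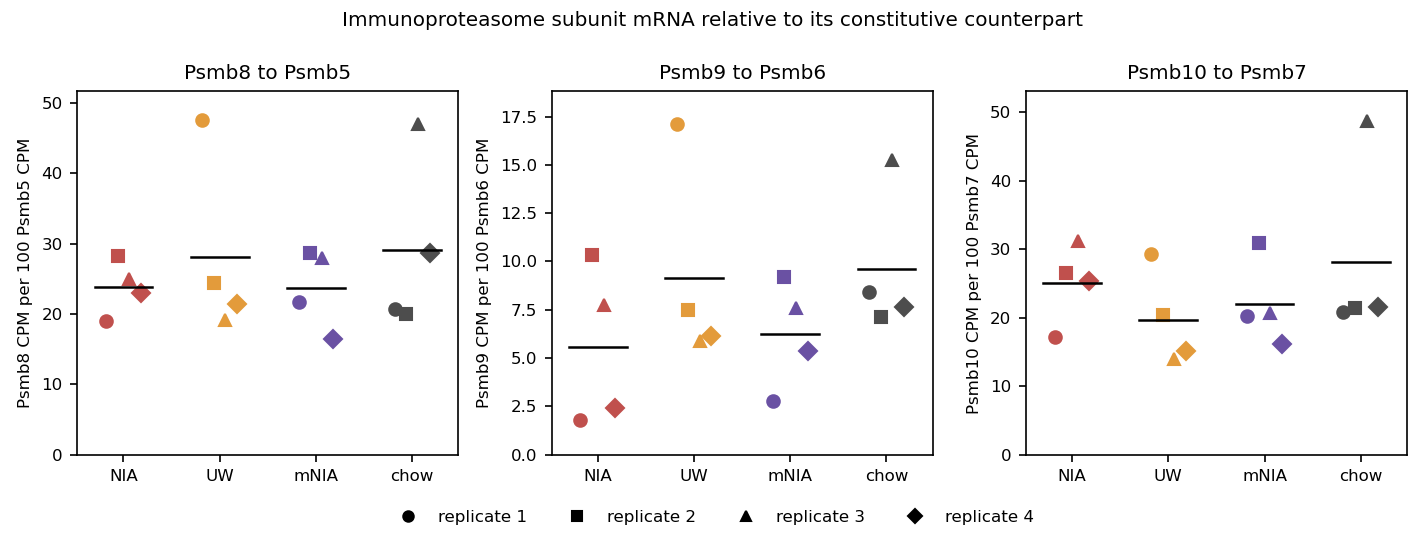
CPM of each immunoproteasome subunit per 100 CPM of its constitutive counterpart in each heart, by diet, with a line at the mean of 4 animals. Most hearts lie between 14 and 31.2 for the Psmb8 and Psmb10 ratios, and chow replicate 3 (47.0 and 48.8) and, for Psmb8, UW replicate 1 (47.6) lie above. The Psmb9 ratio is lowest in NIA replicate 1 (1.79) and highest in UW replicate 1 (17.1).

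Nlrc5, which switches on class I promoters, was the scarcest of the 10 genes per length. It was counted at 5.45, 8.22, 17.6 and 1.42 CPM in the NIA animals, at 13.8, 9.37, 6.62 and 7.72 CPM in the UW animals and at 5.36, 13.9, 7.34 and 5.95 CPM in the mNIA animals. The chow animals had 6.05, 9.47, 24.5 and 18.9 CPM. Chow replicates 3 and 4 were the highest hearts, while chow replicate 1 lay below 8 of the 12 formula hearts. The 1.42 CPM of NIA replicate 4 rest on 2 counts. The log2 fold change on the formulas was -0.73 ± 0.37 (SE, edgeR adjusted p = 0.938), the largest of the 10 genes in size, and -0.38 without chow replicate 3.

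Each formula was also set against chow on its own, and these comparisons share the chow animals. In NIA against chow 8 genes were lower and B2m and Psmb10 higher, with a median log2 fold change of -0.48. The median was -0.45 in UW and -0.54 in mNIA, with all 10 genes lower in both. Without chow replicate 3 the medians were -0.16 in NIA and -0.12 in UW, each with 7 genes lower and 3 higher, and -0.20 in mNIA, with 9 lower and 1 higher. Other single libraries moved the medians the other way, to -0.79 in NIA without NIA replicate 3, -0.68 in UW without UW replicate 1 and -0.85 in mNIA without mNIA replicate 2. Over all 16 libraries edgeR called 0 of the 10 genes for each formula, with 0% of genes called in NIA and in UW and 0.00747%, 1 gene, in mNIA. At an unadjusted p under 0.05 there was 1 of the 10 genes in NIA, 0 in UW (2.35% of all genes) and 0 in mNIA (1.38%). No gene of the 10 had non-overlapping groups, against 1.91% of all genes lower in that way in NIA, 2.48% in UW and 1.26% in mNIA. Without the 4 libraries of low quality weight, 8 of the 10 genes were higher in NIA than in chow, with a median of 0.27. In the same fit 7 genes were lower in UW than in chow (median -0.11) and 9 in mNIA (median -0.48). Of the 10, 0 were called in any of these comparisons. The share of all genes called was 1.63% in NIA, 0.00726% in UW and 0% in mNIA.

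Between the formulas the 10 genes had no common direction. UW minus NIA had a median log2 fold change of 0.05 with 4 genes lower and 6 higher, mNIA minus NIA -0.15 with 7 lower and 3 higher, and mNIA minus UW -0.13 with 8 lower and 2 higher. Single libraries turned these medians: with 1 library left out they ran from -0.27 to 0.35 in UW minus NIA, from -0.47 to 0.18 in mNIA minus NIA and from -0.40 to 0.14 in mNIA minus UW. UW minus NIA had 8 genes lower without UW replicate 1 (-0.27) or NIA replicate 1 (-0.18) and 7 lower without NIA replicate 4 (-0.10). In mNIA minus NIA 7 genes were higher without NIA replicate 3 (0.18) and 6 without NIA replicate 2 (0.01), and in mNIA minus UW 9 were higher without UW replicate 1 (0.14). Without the 4 libraries of low quality weight 9 genes were lower in UW minus NIA (median -0.36) and in mNIA minus UW (-0.40). The largest in size was B2m, at -0.54 ± 0.33 in UW minus NIA (SE, edgeR adjusted p = 0.492). EdgeR called 0 of the 10 genes and 0% of all genes in each pair, and likewise in a joint test over the 4 diets. With limma's quality weights all 10 genes were lower in UW and in mNIA than in NIA (median -0.46 and -0.47). Of the 10, 0 were called, at a smallest limma adjusted p of 0.0861 and 0.0851, against 6.85% and 14.8% of all genes called. The joint adjusted p of the 10 genes was 0.895 to 0.955. No member had an unadjusted p under 0.05 in any pair of formulas, against 13.9% of genes in UW minus NIA, 8.91% in mNIA minus NIA and 0.986% in mNIA minus UW.

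The outcome for mNIA against NIA changed when the 4 libraries of low quality weight were left out, which kept 3 mNIA and 2 NIA animals. All 10 genes were then lower in mNIA, with a median log2 fold change of -0.84, and 2 were called, H2-D1 at -0.84 (edgeR adjusted p = 0.0292) and Psmb8 at -0.85 (edgeR adjusted p = 0.027). In the same fit 9.11% of 13781 genes were called lower and 14% higher, so 2 of 10 stands beside a broad background. The animals kept had 139, 165.5 and 143 CPM of H2-D1 on mNIA, against 215 and 317 CPM on NIA. The NIA hearts left out had 88.1 and 111 CPM, and the mNIA heart left out, replicate 2, had 300.5 CPM, the most on mNIA. The 4 libraries were picked by their departure from the values fitted for their diets in these same data. The adjusted p-values of this fit do not account for that choice.

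Across the 16 hearts, Nlrc5 varied together with most of the other genes. Over the 9 relations computed, Pearson's r of log2 CPM was 0.90 for Tap1 and 0.89 for Tap2 (permutation p = 1e-05 for both, the smallest that 100000 permutations can give, adjusted p = 4.5e-05). It was 0.81 for H2-D1 (permutation p = 0.00014, adjusted 0.00042), 0.76 for Tapbp (p = 0.00063, adjusted 0.00142) and 0.76 for H2-K1 (p = 0.00083, adjusted 0.00149). It was 0.58 for Psmb9 (permutation p = 0.0232, adjusted 0.0348) and 0.48 for Psmb8 (p = 0.0583, adjusted 0.075). For B2m and Psmb10 it was 0.07 (permutation p = 0.815 and 0.812, adjusted 0.815 for both). Spearman's rho was 0.83 to 0.89 for Tap2, H2-D1, Tap1, Tapbp and H2-K1, 0.76 for Psmb9 and 0.70 for Psmb8, each with an adjusted permutation p of 0.00435 or less. It was 0.39 for Psmb10 (permutation p = 0.142, adjusted 0.16) and 0.19 for B2m (p = 0.49, adjusted 0.49).

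Much of the table shared this variation in part. Among the 13380 other genes, 0.396% had a rho with Nlrc5 at least as high as that of Tap2, 0.77% as that of H2-D1, 1.43% as Tap1, 1.53% as Tapbp and 2.19% as H2-K1. The share was 5.43% for Psmb9, 9.43% for Psmb8, 29.8% for Psmb10 and 42.2% for B2m. Without NIA replicate 4 and chow replicate 3, the hearts farthest from the median of Nlrc5, r over 14 hearts was 0.69 to 0.79 for H2-K1, H2-D1, Tap1, Tap2, Tapbp and Psmb9. In the same 14 hearts r was 0.84 for Psmb8 (permutation p = 0.00023, adjusted 0.00207), 0.68 for Psmb10 (p = 0.00775, adjusted 0.00872) and 0.30 for B2m (p = 0.292, adjusted 0.292). After each diet's mean was subtracted, r was 0.88 for Tap1 and Tap2, 0.78 for H2-D1, 0.72 for H2-K1, 0.70 for Tapbp, 0.50 for Psmb9, 0.46 for Psmb8, 0.22 for B2m and 0.11 for Psmb10. Psmb9 was then no longer past the threshold, with a permutation p of 0.0466 and an adjusted p of 0.0699, against an adjusted p of 0.0348 over the 16 libraries as measured. The labels give no batch to split by.

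**Figure D5:**
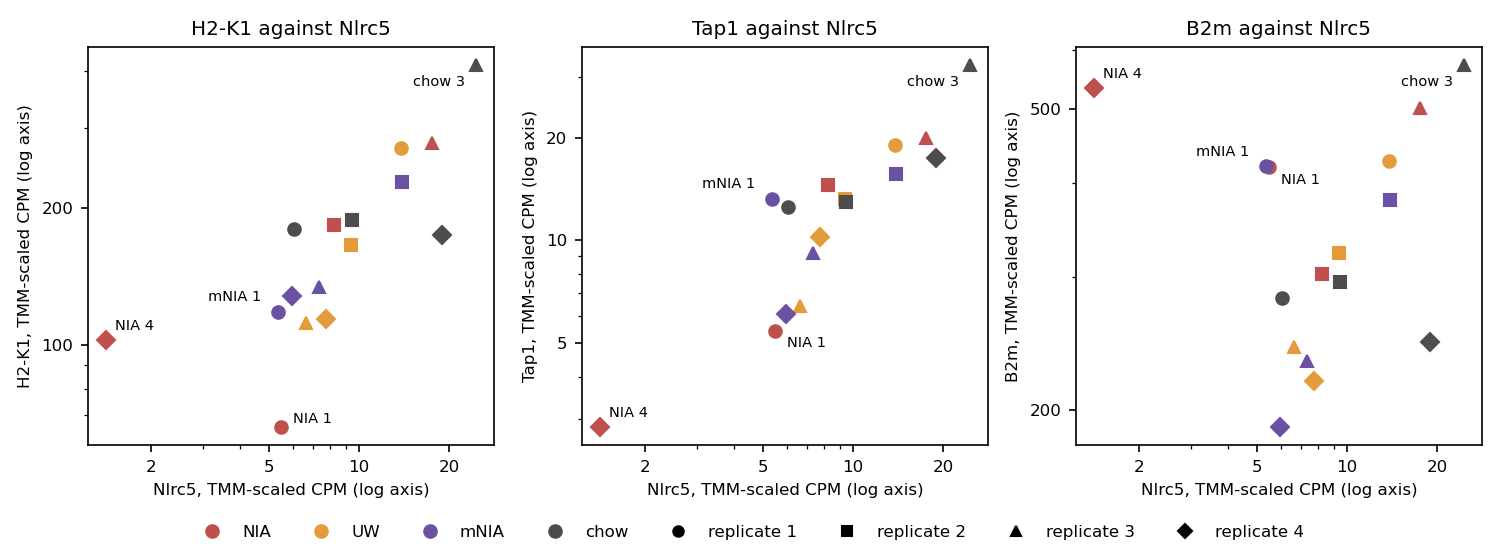
H2-K1, Tap1 and B2m against Nlrc5, all in TMM-scaled CPM on log axes, with 1 point for each heart, coloured by diet and shaped by replicate number. H2-K1 and Tap1 climb with Nlrc5 from NIA replicate 4 (1.42 CPM of Nlrc5) to chow replicate 3 (24.5 CPM), and in the B2m panel NIA replicates 1 and 4 and mNIA replicate 1 lie above the band of the other hearts.

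Long and short transcripts were not counted alike in all libraries, and the 10 genes run from 860 bases for B2m to 7578 for Nlrc5. Across 12618 genes, the rank correlation of transcript length with the library's deviation from the gene mean was -0.52 in NIA replicate 4 and 0.51 in UW replicate 4, and it lay between -0.22 and 0.38 in the others. Across the 10 genes it was -0.89 in NIA replicate 4, where Nlrc5, Tap1 and Tap2 were low and B2m and Psmb10 high, and 0.98 in UW replicate 4. The 10 genes did not follow the whole table in every library: the value was 0.93 in chow replicate 4 (0.09 across all genes), 0.61 in UW replicate 2 (0.07), 0.55 in chow replicate 2 (0.04) and 0.15 in mNIA replicate 4 (0.38). In the other 10 libraries it lay between -0.27 and 0.47 for the 10 genes. These correlations are across genes, which are not independent, and the part of length in the relations with Nlrc5 was not tested.

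The genes whose levels ran closest to the median level of the 10, by Spearman's rho over 16 hearts among 12504 candidates, were Shisa5 and Uba7 (0.98 each), H2-Q4 and Pik3cd (0.97 each), and Plekho2, Adam15, Cnn2, Irf1, Thap3 and Apobec1 (0.96 each). Uba7 encodes the activating enzyme for ISG15, H2-Q4 another class I heavy chain and Irf1 a transcription factor of interferon signalling. H2-Q4 was at 47.0, 105, 151 and 44.1 CPM in the NIA animals, at 121, 77.2, 61.5 and 61.6 CPM in the UW animals, at 61.5, 121, 79.0 and 64.4 CPM in the mNIA animals and at 83.7, 89.3, 245 and 89.4 CPM in the chow animals. Irf1 was at 17.6, 38.4, 40.3 and 12.1 CPM in NIA, at 48.6, 27.3, 26.1 and 26.9 CPM in UW, at 20.9, 54.1, 26.1 and 21.97 CPM in mNIA and at 30.1, 30.0, 59.1 and 37.0 CPM in chow. Both were at their highest in chow replicate 3. Of the 10 genes themselves, rho with their own median level was 0.98 for H2-D1, 0.57 for Psmb10 and 0.32 for B2m, a level in which each takes part.

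Other genes of the pathway were counted from lists. Of 25 further class I genes, 22 were tested, and 14 had a lower and 8 a higher mean on the formulas, with a median log2 fold change of -0.10 and 0 called. The smallest p-values were those of the heavy chain genes H2-Q6 (-0.71 ± 0.33), H2-Q4 (-0.61 ± 0.32) and H2-Q7 (-0.79 ± 0.43), each with an edgeR adjusted p of 0.938 (SE). Without chow replicate 3 the same list had 7 lower and 15 higher, with a median of 0.04. Within it rho with the level of the 10 genes was 0.97 for H2-Q4, 0.94 for H2-T23 and 0.93 for H2-Q7. It was -0.13 for Cd1d1, -0.23 for Hfe and -0.86 for Mr1, which encode heavy chains of the class I fold, and -0.71 for Calr and -0.85 for Canx, which encode chaperones. H2-T23 and these last 5 genes were chosen after their values were seen.

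Of 21 tested regulators of class I transcription, 13 were lower and 8 higher, median -0.13, with 0 called. The smallest p-values were those of Rfx5, a subunit of the factor on the X box, at -0.42 ± 0.18, of Stat2 at -0.52 ± 0.33 and of Irf8 at -0.38 ± 0.27 (SE, edgeR adjusted p = 0.938 each). Rfx5 was at 10.5, 11.1, 12.4 and 5.69 CPM in NIA, at 8.57, 9.37, 9.93 and 11.9 CPM in UW, at 8.75, 10.5, 11.7 and 10.7 CPM in mNIA and at 10.3, 12.0, 18.4 and 14.02 CPM in chow. Spearman's rank correlation with the level of the 10 genes was 0.96 for Irf1, 0.93 for Stat2 and 0.91 for Irf9. Without chow replicate 3 the list had 9 lower and 12 higher, median 0.01.

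Interferon-stimulated genes outside class I were lower on the formulas in 28 of 31 cases, with a median of -0.27 and 0 called. Gbp4, a guanylate-binding protein gene, had the smallest p, at -0.96 ± 0.38, followed by Igtp (-0.35 ± 0.17) and Gbp3 (-0.52 ± 0.27), with an edgeR adjusted p of 0.938 each (SE). Gbp4 stood at 13.5 to 54.8 CPM in the 12 formula hearts, and at 25.4, 33.6, 114 and 75.7 CPM in chow replicates 1 to 4. The first 2 chow hearts lay within the formula range and the other 2 above it. Without chow replicate 3 the count was 15 lower and 16 higher, median 0.03. Class II genes, which present peptides taken up from outside the cell, were lower in 8 of 8 (median -0.20), and in 6 of 8 without chow replicate 3 (median -0.13), with 0 called. Against chow, 7 of 8 were lower in NIA (median -0.05), 5 in UW (median -0.06) and 8 in mNIA (median -0.58).

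The levels of endothelial markers were also far from the rest in some of these hearts, and none of the 18 was at 0 in any library. The list level, the median over its genes of log2 CPM minus the gene mean, was 0.72 for 18 endothelial markers in chow replicate 3, the highest of the 16 hearts, and -0.95 in NIA replicate 4, the lowest. For the 10 class I genes it was 1.19 in chow replicate 3 and -1.03 in NIA replicate 1. Endothelial markers were lower on the formulas in 16 of 18 cases (median -0.19, 0 called) and in 7 of 18 without chow replicate 3 (median 0.02), and they summed to 2998 to 5124 CPM in NIA, 3538 to 5394 in UW, 3228 to 6050 in mNIA and 3631 to 6511 in chow. Macrophage markers were lower in 7 of 15 (median 0.02), and in 5 of 15 without chow replicate 3 (median 0.10). The formulas differed in direction. Against chow, 11 of 15 were higher in NIA (median 0.10) and 13 in UW (median 0.29), but 13 were lower in mNIA (median -0.33), with 0 called. The list level of macrophage markers was 0.11 in chow replicate 3 and highest, at 0.82, in UW replicate 1. They summed to 258 to 554 CPM in NIA, 320 to 707 in UW, 268 to 381 in mNIA and 339 to 433 in chow. Lymphocyte and natural killer markers passed the filter in 6 of 18 cases, with Gzmb at 0 in 10 libraries and Nkg7 and Ncr1 at 0 in 7 each. None of the 6 that passed was at 0 in any library. Their list level was 0.63 in chow replicate 3, the highest of the 16 hearts. Those 6 were lower in 4 cases (median -0.18), and in 1 case without chow replicate 3 (median 0.05). Erythrocyte and platelet markers were lower on the formulas in 11 of 11 cases (median -0.48), and in 8 of 11 without chow replicate 3 (median -0.16), with 0 called. Against chow their median was -0.04 in NIA, -0.82 in UW and -0.57 in mNIA. Their list level was 1.13 in chow replicate 3, below the 1.18 of NIA replicate 2. They summed to 1896 to 7317 CPM in NIA, 1181 to 3415 in UW, 1558 to 4583 in mNIA and 2418 to 6208 in chow. Of 8 dendritic cell markers 4 were tested, and all 4 were lower (median -0.26), against 1 of 4 without chow replicate 3 (median 0.06), with 0 called. Their list level was -1.58 in NIA replicate 4 and 0.95 in chow replicate 3, the lowest and highest of the 16 hearts, as it was for endothelial markers. Of 10 markers of pericytes and smooth muscle, 8 were lower (median -0.35), and 6 of 10 without chow replicate 3 (median -0.19), with 0 called. Their list level was -1.30 in NIA replicate 4 and 0.58 in chow replicate 3. Their summed CPM did not follow: it was 1379 in chow replicate 3, the lowest chow heart, and 1516 in NIA replicate 4, within the NIA range of 1290 to 1777. Fibroblast markers were lower in 5 of 9 (median -0.06), and in 6 of 9 without chow replicate 3 (median -0.06). The fibroblast list level was 0 in chow replicate 3 and highest, at 0.72, in UW replicate 1. The 2 tested atrial markers were both lower (median -0.33), and 1 of 2 was without chow replicate 3 (median -0.16). Cardiomyocyte markers were lower in 1 of 12 (median 0.10), and in 6 of 12 without chow replicate 3 (median 0.01), and their list level was -0.41 in chow replicate 3. In whole tissue, fewer cells of a type and less RNA per cell cannot be told apart, and the part of these markers in the class I differences was not tested.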

How the data were processed

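Poly-A selected, strand-specific libraries were read as 75-base single reads from RNA with an integrity number above 7.0, per the labels' protocols. The deposited table holds expected counts per gene, unscaled, which the submitters' processing notes tie to BWA, DESeq2 and mm10 without versions. The counting tool and gene models are not given in the sources used here. Expected counts were rounded to whole numbers, which moved no value of the 10 genes by more than 0.49. Ends of genes are given as 1 less than the listed stop, which lay 1 past the RefSeq end for 62.6% of 17416 genes matched by symbol.

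The members and all gene lists were chosen with earlier results of these data known. EdgeR 4.0.16 (R 4.3.3) was run on all 16 libraries with filterByExpr by diet (13381 genes kept), TMM scaling, robust quasi-likelihood dispersion and 1 mean per diet. The Benjamini-Hochberg adjustment ran over the whole table, with a threshold of 0.05. The script was tested on simulated data. Values are TMM-scaled CPM, except the highest value of Myl7, which was not TMM-scaled. Alternatives were RLE and upper-quartile scaling, DESeq2 1.42.0, limma-voom 3.58.1 with sample quality weights, replicate numbers as a block, no filter on low counts, only genes over 1 CPM in 4 or more libraries, only the 2 groups compared, each library left out, and the 4 libraries of low quality weight left out. Subunit ratios were tested by exact permutation (Python 3.11.15, numpy 2.4.6) and relations with Nlrc5 by log2 CPM (prior count 2). Named genes were the 10 members, the 3 with the smallest p of each pathway list, and the 10 other genes, of known symbol and at least 1 CPM on average, whose level ran closest to the members' median. Irf9, H2-T23, Mr1, Hfe, Cd1d1, Calr, Canx, Myl7, Myl4, Nppa, Gzmb, Nkg7 and Ncr1 lie outside this rule and were named after their values were seen. Transcript lengths and shared windows are from GENCODE vM21 and promoters from RefSeq GRCm38.p6. Intervals cover the spread between animals, and counting error limits values under about 10 counts. Values of 1 listed regulator are not reported here.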

Additional observations from a re-analysis of the deposited data

Results flagged for a closer look

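In groups of 4 animals, a single heart was marked where its gap to the nearest other heart was a larger share of the group's range than Dixon's 95% critical value. Of 52 groups tested, 10 were marked. Chance marks about 1 in 20 independent groups, but these groups share the same hearts and hold genes that vary together. The count therefore cannot be compared with that rate.

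Chow replicate 3 accounted for 7 of the 10. It held 412.4 CPM of H2-K1 against 174 to 188.5 in the other chow hearts, 432.2 CPM of H2-D1 against 197.5 to 207.4, and 572.2 CPM of B2m against 246.6 to 295.6. It also held 19.04 CPM of Psmb9 against 7.095 to 8.197, and 42.4 CPM of Psmb10 against 30.58 to 31.47. Its ratios were 15.26 Psmb9 per 100 Psmb6, against 7.143 to 8.399, and 48.76 Psmb10 per 100 Psmb7, against 20.86 to 21.52. Psmb7 itself was at 86.96 CPM in chow replicate 3, against 142.1 to 149.7 CPM in the other chow hearts.

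Replicate 2 of mNIA held 227.7 CPM of H2-K1, against 118.2 to 134.1 in the other mNIA hearts, and 300.5 CPM of H2-D1, against 139.1 to 165.5. UW replicate 1 had 17.14 Psmb9 per 100 Psmb6, against 5.882 to 7.493 in the other UW hearts.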

How the results depend on the processing

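The 10 genes were called 0 times in every comparison and setting, except for the 2 calls in mNIA minus NIA without the 4 libraries of low quality weight. Over all genes the counts moved more. NIA minus chow gave 127 genes with DESeq2, 28 (0.209% of tested genes) with limma-voom and 224 (1.63%) without the 4 libraries. UW minus NIA gave 375, 916 (6.85%) and 1627 (11.8%) in that order. The counts were 3, 1979 (14.8%) and 3184 (23.1%) for mNIA minus NIA, and 174, 1980 (14.8%) and 1374 (9.97%) for the joint test. UW minus chow gave 1 in all 3, mNIA minus UW 1 with DESeq2 and limma-voom, and the formulas together 4 with limma-voom. The 1 gene of mNIA minus chow became 0 with DESeq2, upper-quartile scaling, the replicate block, only the 2 groups compared and without the 4 libraries. With 1 library left out the counts were 0 to 116 for NIA minus chow, 0 to 217 for UW minus NIA, 0 to 110 for the joint test, and 0 to 1 for mNIA minus UW and mNIA minus chow. The upper value of the first 3 came without NIA replicate 2.

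Log2 fold changes against chow changed sign as follows, with the cause not tested. B2m on the formulas was 0.00 with RLE and DESeq2, 0.10 with limma-voom and 0.23 without the 4 libraries. NIA minus chow without the 4 libraries was 0.33 for H2-K1, 0.37 for H2-D1, 0.21 for Tap1, 0.36 for Psmb8, 0.33 for Psmb9 and 0.04 for Nlrc5, and with limma-voom 0.04 for H2-D1, 0.05 for Tap1, 0.24 for Psmb8 and 0.20 for Psmb9. Without the 4 libraries UW minus chow was 0.02 for H2-D1, 0.15 for B2m and 0.01 for Tapbp, and mNIA minus chow 0.01 for B2m. With 1 library left out, B2m ranged from -0.16 to 0.32 on the formulas, -0.42 to 0.14 in UW and -0.40 to 0.15 in mNIA. In the same runs H2-D1 ranged from -0.60 to 0.01 and Tapbp from -0.19 to 0.04 in UW, and Psmb8 from -0.43 to 0.15 and Psmb10 from -0.12 to 0.33 in NIA.

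The log2 ratio of Psmb8 to Psmb5 without the 4 libraries was 0.11 for the formulas, 0.22 for NIA and 0.20 for UW. That of Psmb9 to Psmb6 was 0.22 for NIA and 0.10 for UW, and that of Psmb10 to Psmb7 0.44 for NIA. With 1 library left out, Psmb8 to Psmb5 ranged from -0.32 to 0.09 for the formulas, -0.36 to 0.04 for NIA, -0.35 to 0.20 for UW and -0.39 to 0.02 for mNIA. Psmb9 to Psmb6 ranged from -0.50 to 0.10 for UW. Psmb10 to Psmb7 ranged from -0.39 to 0.02 for the formulas, -0.21 to 0.21 for NIA and -0.46 to 0.01 for mNIA.

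Pearson's r with Nlrc5 without the 4 libraries was 0.86 for Psmb8 and 0.59 for Psmb10, both then past the threshold. With 1 library left out it ranged from -0.15 to 0.49 for B2m, -0.07 to 0.74 for Psmb10, 0.33 to 0.89 for Psmb8 and 0.47 to 0.77 for Psmb9. The upper values of Psmb8 and Psmb10 came without NIA replicate 4.

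Same-numbered libraries of different diets did not deviate together (correlations -0.58 to 0.61, and 4 of 16 libraries closest to their own number). With the replicate block 0 of the 10 genes were called, and the smallest joint adjusted p was 0.978. Depth limits the lowest values: Nlrc5 in NIA replicate 4 rests on 2 counts.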
